A study of Homo sapiens with 24 samples.

Results

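The BCL2 family decides whether the outer membrane of the mitochondrion stays intact, and the 10 members described here were the rows of the gene counts whose Ensembl identifiers carried the symbols BCL2, BCL2L1, BCL2L2, MCL1, BAK1, BID, BCL2L11, PMAIP1, BIK and BMF, out of 58721 genes counted. Rows were picked by symbol, with no measured value used. The symbols themselves were chosen with earlier results of these data known. All 10 were measured by RNA-seq in each of 24 libraries of A549 cells, an established epithelial line from a human lung adenocarcinoma.

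In the single knockdowns, cells received 25 nM of siRNA against MYBL2 (siMYBL2, 4 libraries) or FOXM1 (siFOXM1, 4 libraries), and both were compared with the same 4 libraries of cells given scrambled siRNA (siControl). In the double knockdown, 3 libraries from cells given both siRNAs (siBoth) were compared with 3 controls of their own (siControl_Both). In the drug experiment, 3 libraries from cells exposed to 20 μM of FDI-6, a small molecule described as an inhibitor of FOXM1, for 24 h (FDI6) were compared with 3 libraries of control cells (control_FDI6). MYBL2 and FOXM1 are transcription factors that switch on cell cycle genes, so the comparisons ask what the apoptosis regulators did when either factor, or both, was lowered. The controls carried no knockdown of either factor and were of the same line, which is a single tumour's line, and mRNA was measured in bulk, so that fewer cells with a transcript and less of it per cell cannot be told apart.

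Proteins of this family act in 3 roles. BCL2, BCL2L1 (BCL-XL), BCL2L2 (BCL-W) and MCL1 are antiapoptotic and hold the others in check. BAK1 is an effector, which forms pores in the outer mitochondrial membrane and lets cytochrome c out. BID, BCL2L11 (BIM), PMAIP1 (NOXA), BIK and BMF carry only the BH3 domain and either block the antiapoptotic proteins or activate the effectors. Much of their control lies in the protein (cleavage of BID by caspase 8, rapid breakdown of MCL1), which mRNA does not show.

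Between 16487394 and 30140550 read pairs per library fell on genes. Pairs that were not aligned made up 9.09% to 10.9% in siBoth and 7.68% to 7.92% in siControl_Both, with no overlap, against 1.73% to 3.03% elsewhere. The siRNAs lowered their targets: MYBL2 stood at 6.38 ± 1.96 CPM (counts scaled to the size of the library, SD, n = 4) in siMYBL2 against 156 ± 20.4 in siControl, and FOXM1 at 12.2 ± 1.27 in siFOXM1 against 128 ± 14.1. In siBoth they stood at 8.45 ± 1.98 and 13.1 ± 2.59 (n = 3), against 175 ± 17.95 and 138 ± 9.63 in siControl_Both. FOXM1 also fell in siMYBL2, to 75.8 ± 14.7 CPM, and with FDI6 both MYBL2 (log2 fold change −0.51, edgeR adjusted p = 0.00105) and FOXM1 (−0.37, adjusted p = 0.00400) fell. Epithelial and A549 markers were present in every library (summed level 2751 to 8232 and 5250 to 14691 CPM). Most of the epithelial sum was KRT8 (1609 to 5641) and KRT18 (1019 to 2495), while EPCAM was at 1.66 to 37.8 CPM. All 3 T cell markers were at 0, and leukocyte and endothelial markers summed to at most 1.16 and 4.56 CPM. Fibroblast markers summed to 5.83 to 58.3 CPM, most of it COL1A1 (4.87 to 57.9). With FDI6, 9 of the 10 epithelial and A549 markers fell and KRT19 rose, and the epithelial sum was 4244 to 5013 CPM against 7573 to 8232 in control_FDI6, while in siMYBL2 and siBoth only ALDH1A1 of the 10 fell. The part of these shifts in the results below was not tested.

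Promoter sequence is shown for the 3 members that carry most of the differences and have an entry in the RefSeq table (GRCh38.p14): BAK1, the member that moved in opposite directions in the single knockdowns, BMF, which rose in both experiments that lowered MYBL2 by siRNA, and PMAIP1, which rose with FDI6. Each is the 250 bases before the start of transcription on the gene's own strand, 5′ to 3′, and capitals mark the matches to the motifs named below, on either strand.
BAK1 (chr6:33580277-33580526, minus strand): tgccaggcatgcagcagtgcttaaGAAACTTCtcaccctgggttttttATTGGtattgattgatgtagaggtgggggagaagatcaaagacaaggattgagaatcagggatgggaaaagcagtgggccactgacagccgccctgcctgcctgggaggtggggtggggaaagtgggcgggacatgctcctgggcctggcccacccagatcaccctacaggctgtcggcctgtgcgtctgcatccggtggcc
BMF (chr15:40108880-40109129, minus strand): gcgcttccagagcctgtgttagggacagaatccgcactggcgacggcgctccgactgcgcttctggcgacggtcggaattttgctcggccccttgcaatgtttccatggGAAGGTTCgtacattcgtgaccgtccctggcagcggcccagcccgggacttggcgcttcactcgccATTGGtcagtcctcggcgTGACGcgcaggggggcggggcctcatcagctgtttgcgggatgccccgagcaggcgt
PMAIP1 (chr18:59899746-59899995, plus strand): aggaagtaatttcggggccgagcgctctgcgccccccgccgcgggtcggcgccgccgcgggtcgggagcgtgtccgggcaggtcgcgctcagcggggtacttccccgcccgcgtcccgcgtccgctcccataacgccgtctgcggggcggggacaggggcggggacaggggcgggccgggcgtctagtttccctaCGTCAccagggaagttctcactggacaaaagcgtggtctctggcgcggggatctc
Of the 10 members, 7 had such an entry, and MCL1, BCL2L2 and BIK are named only. The letters searched, on both strands, were the CCAAT box CCAAT, the cell cycle gene homology region TTTGAA, the cAMP response element TGACGTCA and its shorter form CGTCA, which lies within it, the forkhead site TGTTTAC, the AP-1 site TGAGTCA, the E-box CACGTG, the heat shock element GAANNTTC and an NF-kB site. BAK1 held CCAAT (first base at −202 from the start) and GAANNTTC (−226), BMF held CCAAT (−75), CGTCA (−57) and GAANNTTC (−141), and PMAIP1 held CGTCA (−55). Among 35116 RefSeq windows of this kind, CCAAT was in 32.0%, CGTCA in 21.2% and GAANNTTC in 5.78%. TTTGAA, in 13.3% of windows, was in none of the 7, and TGTTTAC, in 2.98%, was in that of BCL2L11 alone. These matches describe letters and not binding.

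In control cells MCL1 and BCL2L1 were on top and BCL2, BMF and BIK at the bottom in every experiment, while the order in the middle changed. Levels are compared between genes as CPM per kb of exons, since a longer gene gathers more reads. In siControl, MCL1 stood at 67.6 ± 5.94 CPM per kb (SD, n = 4), BCL2L1 at 25.2 ± 4.17, PMAIP1 at 13.6 ± 2.01, BID at 11.7 ± 0.524, BAK1 at 8.08 ± 0.800 and BCL2L2 at 6.83 ± 0.705. BCL2L11 followed at 1.86 ± 0.365, BIK at 0.984 ± 0.410, BMF at 0.478 ± 0.0537 and BCL2 at 0.377 ± 0.0569. The libraries of neighbours in this order overlapped for PMAIP1 and BID, for BAK1 and BCL2L2, for BIK and BMF and for BMF and BCL2, and did not for the other pairs of neighbours. BCL2, the founding member, was thus the least abundant of the 10 per kb of exons in siControl and siControl_Both, and BMF was in control_FDI6 (0.180 ± 0.0618 CPM per kb, n = 3). In control_FDI6 the top 2 changed places, with BCL2L1 at 42.3 ± 2.65 and MCL1 at 32.2 ± 0.886 CPM per kb and no overlap between them. PMAIP1, at rank 3 in siControl, was at rank 6 in siControl_Both (10.1 ± 1.46 CPM per kb) and at rank 5 in control_FDI6 (8.24 ± 0.799). MCL1 made up 65.2% to 71.5% of the summed CPM per kb of the 4 antiapoptotic members in siControl, 67.4% to 71.1% in siControl_Both and 37.7% to 41.1% in control_FDI6. With the length of the canonical transcript in place of all exons, BID moved above PMAIP1, BCL2L2 above BAK1 and BCL2 above BMF in siControl. Control groups of different experiments differ in more than 1 way, such as the treatment they matched (siRNA or FDI-6) and the share of pairs not aligned. Their levels are set side by side without a test.

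**Figure D1:**
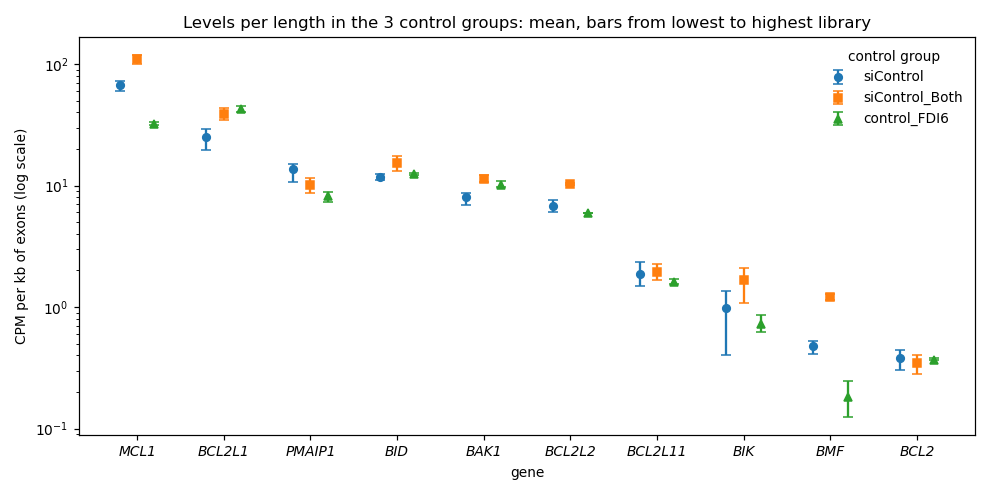
Level of each of the 10 members in the 3 control groups (siControl n = 4, siControl_Both n = 3, control_FDI6 n = 3) as CPM per kb of exons on a log axis, with points at the mean and bars from the lowest to the highest library. MCL1 and BCL2L1 stood highest in each group, and MCL1 in control_FDI6 (32.2) lay below BCL2L1 (42.3).

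Counts of a member are uncertain where its exons overlap another gene's, since the strand setting of the counting is not given in the sources used here. On hg38 with GENCODE V44, BCL2L1 (ENSG00000171552.12, chromosome 20, 31664452 to 31723989, minus strand, 3 exons in its canonical transcript) had 41.3% of its exon bases opposite the antisense gene ABALON. BCL2L2 (ENSG00000129473.9, chromosome 14, 23298790 to 23311751, plus strand) shared 16.8% with the readthrough gene BCL2L2-PABPN1 on its own strand. It also had 7.98% opposite PPP1R3E and HOMEZ, of which HOMEZ was not among the genes counted. MCL1 (ENSG00000143384.12, chromosome 1, 150560895 to 150579738, minus strand) shared 5.27% with ADAMTSL4-AS1 and had 0.691% opposite ADAMTSL4. BAK1 (ENSG00000030110.12, chromosome 6, 33572547 to 33580293, minus strand) had 4.11% opposite GGNBP1, BMF (ENSG00000104081.13, chromosome 15, 40087890 to 40108892, minus strand) 8.46% opposite BMF-AS1, and BCL2L11 (ENSG00000153094.22, chromosome 2, 111119378 to 111168444, plus strand) 10.8% opposite MIR4435-2HG. BCL2 (ENSG00000171791.12, chromosome 18, 63123346 to 63320128, minus strand), PMAIP1 (ENSG00000141682.11, chromosome 18, 59899996 to 59904305, plus strand), BID (ENSG00000015475.18, chromosome 22, 17734138 to 17774770, minus strand) and BIK (ENSG00000100290.2, chromosome 22, 43110750 to 43129712, plus strand) overlapped no other gene's exons.

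**Figure D2:**
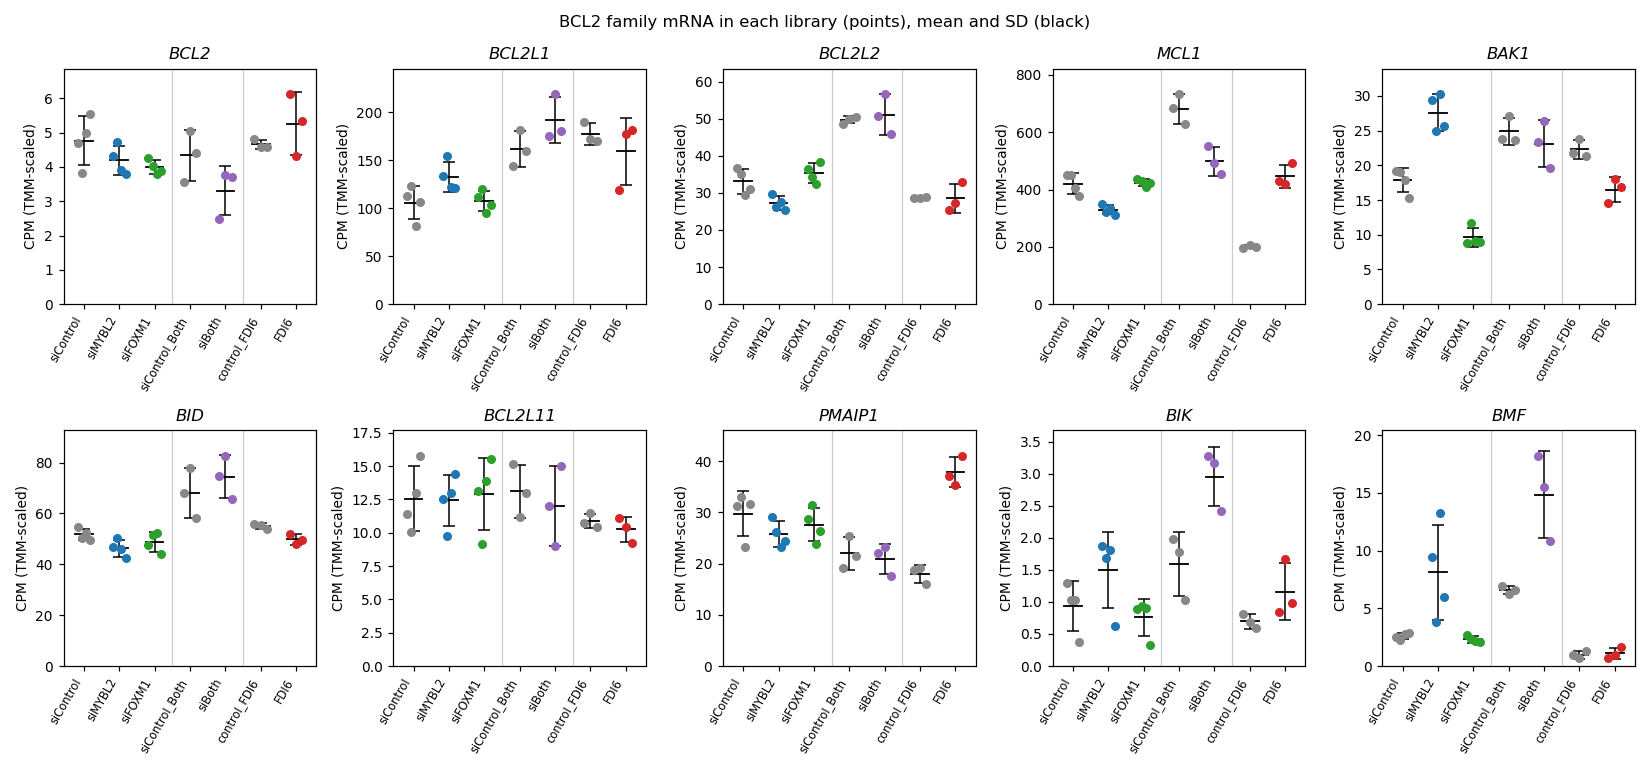
CPM of each member in each of the 24 libraries (points, grey for controls), with the mean and SD of each group in black and grey lines between the 3 experiments. BAK1 was above siControl in siMYBL2 and below it in siFOXM1, BMF was raised in siMYBL2 and siBoth, and MCL1 and PMAIP1 were raised with FDI6.

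Knockdown of MYBL2 was followed by more mRNA of 2 proapoptotic members, BAK1 and BMF, and less of the antiapoptotic MCL1. BAK1 rose by 1.57-fold and BMF by 3.16-fold, and MCL1 fell to 0.796 of its control level. The other 7 members did not pass the test. A gene is said to rise or fall at an adjusted p under 0.05 (edgeR quasi-likelihood test, Benjamini-Hochberg over the 16065 genes tested), and to be called when it also changed by more than 1.5-fold. By this rule 8.53% of all genes rose and 9.53% fell in siMYBL2, and 4.38% were called higher and 3.52% called lower. Of the 10 members, 2 rose, both of them called, and 1 fell.

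BMF, a BH3-only protein held at the cytoskeleton in healthy cells, was at 9.44, 3.77, 13.2 and 6.01 CPM in the 4 siMYBL2 libraries (mean 8.11 ± 4.13, SD) and at 2.55, 2.22, 2.78 and 2.88 in siControl (2.61 ± 0.293). Every siMYBL2 library lay above every siControl library, although the siMYBL2 libraries themselves spread over a wide range. The log2 fold change was 1.66 (SE 0.351, 95% interval 0.87 to 2.45, edgeR adjusted p = 0.0124). BAK1 was at 29.5, 24.9, 30.3 and 25.7 CPM in siMYBL2 and at 19.1, 19.1, 17.9 and 15.4 in siControl. The groups did not overlap, and the log2 fold change was 0.65 (SE 0.104, 95% interval 0.42 to 0.88, edgeR adjusted p = 0.00353). Without replicate 4 of siControl, its lowest library, the change of BAK1 was 0.57 and no longer over 1.5-fold, though still past the adjusted p. MCL1, the short-lived antiapoptotic protein that holds BAK1 inactive, was at 348, 323, 336 and 312 CPM in siMYBL2 and at 450.3, 452, 405 and 376 in siControl. Every siMYBL2 library lay below every siControl library, with a log2 fold change of −0.33 (SE 0.0765, 95% interval −0.50 to −0.16, edgeR adjusted p = 0.0182). The change of MCL1 did not pass without siControl replicate 1 (adjusted p = 0.0612) or replicate 2 (adjusted p = 0.0552). Over all genes the groups did not overlap for 23.1%, and over the members for 3 of 10.

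Among the other antiapoptotic members in siMYBL2, BCL2L1 changed by 0.35 on the log2 scale (95% interval 0.06 to 0.63, edgeR adjusted p = 0.0935), BCL2L2 by −0.26 (−0.46 to −0.05, adjusted p = 0.0836) and BCL2 by −0.16 (−0.49 to 0.16, adjusted p = 0.483). BCL2L1 was at 134, 154, 122 and 120.5 CPM in siMYBL2 and at 113, 123, 81.5 and 107 in siControl, with overlap. BCL2L2 was at 29.6, 26.3, 27.6 and 25.5 CPM against 36.7, 35.2, 29.4 and 31.0, with overlap only between the highest siMYBL2 library and the lowest siControl library. Among the BH3-only members, BID changed by −0.14 (adjusted p = 0.170), PMAIP1 by −0.19 (adjusted p = 0.328), BIK by 0.69 (−0.23 to 1.61, adjusted p = 0.280) and BCL2L11 by 0.01 (−0.37 to 0.39, adjusted p = 0.977). Same-numbered siMYBL2 and siControl libraries deviated together, and once that number entered the fit as a replicate block 8 of the 10 members passed. BCL2L1 (0.36, adjusted p = 0.000200), BCL2L2 (−0.25, adjusted p = 0.00570), BID (−0.14, adjusted p = 0.0384), PMAIP1 (−0.18, adjusted p = 0.04999) and BIK (0.71, adjusted p = 0.0130) passed in addition. With the block, 3 members rose more than 1.5-fold (BAK1, BMF and BIK), and none fell by that much. Over all 16065 genes, 1234 were called higher and 757 lower with the block, against 704 and 565 without it. The share of all genes past the adjusted p alone was not counted with the block, so the 8 of 10 members have no background beside them.

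Knockdown of FOXM1 changed 1 member, BAK1, and in the other direction. BAK1 was at 8.84, 11.7, 9.17 and 8.90 CPM in siFOXM1 (mean 9.64 ± 1.36, SD, n = 4) against 17.9 ± 1.77 in siControl, or 0.542 of the control level. No siFOXM1 library reached the lowest siControl library, and the highest, replicate 2, stood apart from the other 3. The log2 fold change was −0.88 (SE 0.120, 95% interval −1.16 to −0.61, edgeR adjusted p = 0.00961), and without siFOXM1 replicate 1 it was −0.85 (adjusted p = 0.0513). Among all 15892 genes tested, 0.277% rose and 1.09% fell, 0.0755% were called higher and 0.591% called lower, and for 9.21% the groups did not overlap. BAK1 was the only member to pass and the only one whose groups did not overlap, with and without the replicate block.

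The other 9 members lay close to siControl. MCL1 was at 436, 428, 408 and 422 CPM in siFOXM1, within the siControl range, and its change was 0.02 (95% interval −0.14 to 0.18). BCL2L1 changed by 0.03 (−0.26 to 0.31), BCL2L2 by 0.10 (−0.10 to 0.30), BID by −0.08 (−0.24 to 0.08), PMAIP1 by −0.10 (−0.39 to 0.19), BCL2L11 by 0.05 (−0.37 to 0.47) and BMF by −0.16 (−0.51 to 0.18). BCL2 changed by −0.25 (−0.55 to 0.06). For all of these the interval left room for no more than about 1.5-fold in either direction. BIK changed by −0.30 (−1.23 to 0.63), and its wide interval came with few reads, 9 to 87 counts per library over the 24 libraries.

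With both factors lowered, BMF rose again, MCL1 fell again, and BAK1 did not pass the test. BMF was at 18.2, 15.5 and 10.8 CPM in siBoth (mean 14.8 ± 3.76, SD, n = 3) and at 6.96, 6.28 and 6.59 in siControl_Both (6.61 ± 0.343), with no overlap. Its log2 fold change was 1.19 (SE 0.197, 95% interval 0.74 to 1.65, edgeR adjusted p = 0.00864), a 2.29-fold rise. MCL1 was at 553, 491 and 453 CPM in siBoth and at 683, 734 and 628 in siControl_Both, again with no overlap. Its log2 fold change was −0.42 (SE 0.104, 95% interval −0.66 to −0.18, edgeR adjusted p = 0.0356). That call was close to the threshold: it was lost with upper-quartile scaling (adjusted p = 0.0538), with a correction for GC content and length (adjusted p = 0.0546), and on leaving out siBoth replicate 2 or 3 or any of the 3 siControl_Both libraries (adjusted p from 0.0664 to 0.114), and it held with the replicate block. BAK1 was at 23.3, 26.4 and 19.7 CPM in siBoth and at 23.8, 27.2 and 23.7 in siControl_Both, a change of −0.08 (95% interval −0.38 to 0.22, adjusted p = 0.727). It passed in 1 of 15 alternatives, the correction for GC content and length together with the replicate block (−0.23, edgeR adjusted p = 0.0395).

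BIK, a BH3-only protein of the endoplasmic reticulum, was at 3.28, 3.17 and 2.42 CPM in siBoth and at 1.98, 1.77 and 1.02 in siControl_Both. The groups did not overlap, but the change of 0.92 (SE 0.278, 95% interval 0.28 to 1.55) did not pass the adjusted test (edgeR adjusted p = 0.0675). Same-numbered libraries of this experiment also deviated together, and with the replicate block BIK passed (0.93, adjusted p = 0.00276), as did BCL2L1 (0.27, adjusted p = 0.00517), so that 4 members passed in place of 2. BCL2L1 was at 176, 219 and 180.4 CPM in siBoth against 144, 182 and 160.0, with overlap (0.27, edgeR adjusted p = 0.175 without the block). BCL2 changed by −0.37 (−0.89 to 0.15, adjusted p = 0.319), BID by 0.16, BCL2L2 by 0.07, BCL2L11 by −0.10 and PMAIP1 by −0.04, and none of these 5 passed. Among the 15812 genes tested, 4.55% rose and 7.77% fell, 2.8% were called higher and 3.64% called lower. The 443 genes called higher and 576 called lower became 610 and 417 with upper-quartile scaling, and 1046 and 803 with the replicate block. The share of all genes past the adjusted p alone was not counted with the block. The groups did not overlap for 35.3% of all genes and for 3 of the 10 members.

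**Figure D3:**
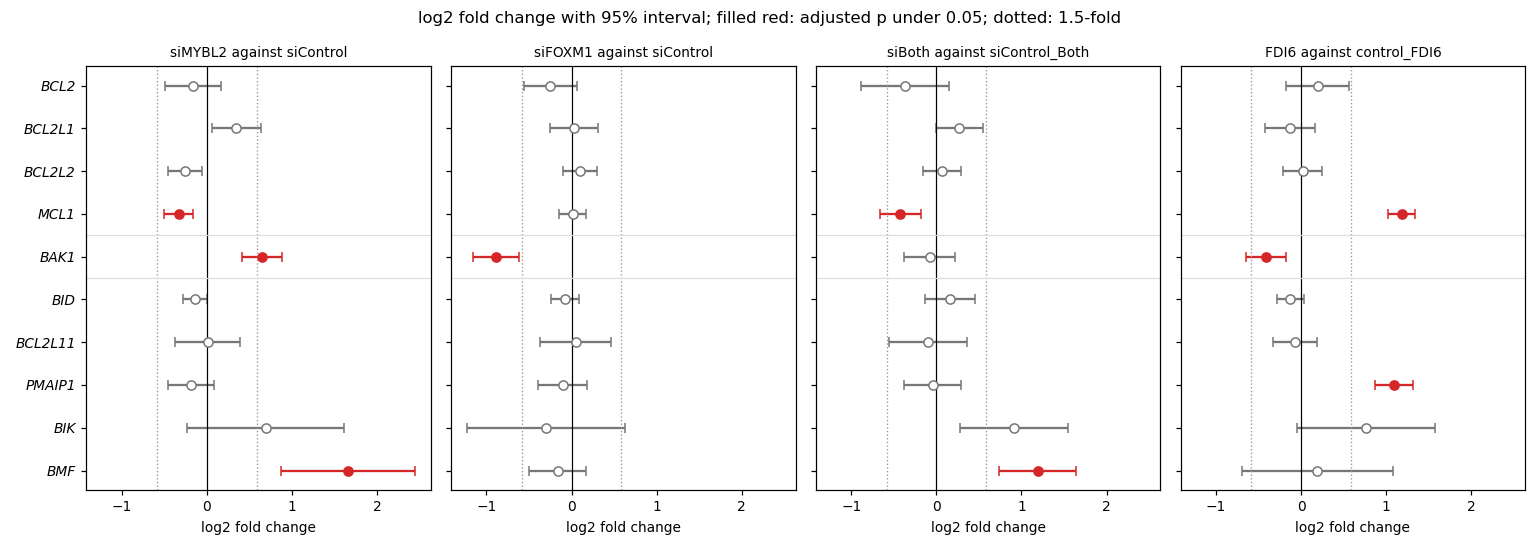
Log2 fold change of each member in the 4 comparisons with its 95% interval (edgeR quasi-likelihood fit), filled red where the adjusted p was under 0.05 and with dotted lines at 1.5-fold. BAK1 was at 0.65 in siMYBL2, −0.88 in siFOXM1, −0.08 in siBoth and −0.41 with FDI6.

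FDI-6 raised 2 members by more than 2-fold, MCL1 and PMAIP1, and lowered BAK1. MCL1 was at 429, 418 and 492 CPM in the FDI6 libraries (mean 447 ± 40.0, SD, n = 3) and at 195, 206 and 200.2 in control_FDI6 (200.1 ± 5.51). The lowest treated library was far above the highest control, with a 2.27-fold rise (log2 fold change 1.18, SE 0.0738, 95% interval 1.02 to 1.34, edgeR adjusted p = 6.51e-07). PMAIP1, whose product NOXA binds MCL1, was at 37.1, 35.3 and 41.0 CPM with FDI6 and at 18.8, 19.2 and 15.997 in the controls. It rose 2.13-fold, with no overlap (log2 fold change 1.09, SE 0.103, 95% interval 0.87 to 1.32, edgeR adjusted p = 1.35e-05). The 2 transcripts rose in proportion, so that the ratio of MCL1 to PMAIP1 in CPM was 11.6 to 12.0 with FDI6 and 10.3 to 12.5 in the controls. Among 15240 genes tested, 21% rose and 17.9% fell, 8% were called higher and 5.77% called lower, so that 2 members called higher and 1 that fell of 10 stand against a broad response.

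BAK1 was at 14.5, 18.1 and 16.8 CPM with FDI6 and at 21.7, 23.9 and 21.4 in control_FDI6, with no overlap. Its log2 fold change was −0.41 (SE 0.108, 95% interval −0.65 to −0.18, edgeR adjusted p = 0.0103). With a correction for GC content and length it was −0.16 (adjusted p = 0.176), and without control_FDI6 replicate 2 it was −0.37 (adjusted p = 0.0549). The ratio of MCL1 to BAK1 in CPM was 23.1 to 29.5 with FDI6 against 8.61 to 9.36 in its controls. In the single knockdowns that ratio was 11.1 to 13.0 in siMYBL2 and 36.7 to 49.4 in siFOXM1, on either side of 22.7 to 24.5 in siControl. In siBoth it was 18.6 to 23.7 against 26.5 to 28.7 in siControl_Both. No group overlapped with its own control in this ratio, which restates the tests of its 2 genes and was not tested by itself.

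The other members did not pass with FDI6. BCL2L1 was at 119, 178 and 181 CPM against 190.1, 172 and 169.7 in the controls, and FDI6 replicate 1 lay well below the other treated libraries (change −0.13, 95% interval −0.42 to 0.16, adjusted p = 0.464). BCL2L2 changed by 0.02 (−0.21 to 0.25), BCL2 by 0.20 (−0.18 to 0.57), BCL2L11, the broadly binding BIM, by −0.07 (−0.32 to 0.19) and BMF by 0.19 (−0.69 to 1.08). BMF was at 0.661, 0.977 and 1.63 CPM with FDI6 and at 0.919, 0.682 and 1.35 in the controls, so that the gene raised in both MYBL2 knockdowns was low in both arms. BID, which caspase 8 cuts into its active form, changed by −0.12 (adjusted p = 0.197) and BIK by 0.76 (−0.05 to 1.57, adjusted p = 0.126), and in both the groups did not overlap. For BIK the gap was small and at few reads, from 0.841 CPM (14 counts, FDI6 replicate 1) to 0.811 CPM (15 counts, control_FDI6 replicate 1). In all, 5 members did not overlap between the groups, against 51.9% of all genes.

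The difference between 2 effects was tested itself, in 1 fit of the 24 libraries (edgeR quasi-likelihood test over 17752 genes). The siMYBL2 and siFOXM1 effects shared their controls, and 4 members differed between them, where 25.3% of all genes did. The siMYBL2 effect minus the siFOXM1 effect was 1.53 for BAK1 (SE 0.113, 95% interval 1.29 to 1.76, adjusted p = 2.09e-09) and 1.81 for BMF (SE 0.289, 1.21 to 2.41, adjusted p = 6.62e-05). It was −0.35 for MCL1 (SE 0.0735, adjusted p = 0.00101) and −0.37 for BCL2L2 (SE 0.0883, adjusted p = 0.00347), so both antiapoptotic genes were lower in siMYBL2 relative to siFOXM1. BIK (0.98, adjusted p = 0.0517) and BCL2L1 (0.31, adjusted p = 0.0924) did not pass, and both did with the replicate block (0.97, adjusted p = 0.000640, and 0.31, adjusted p = 0.00472), with upper-quartile scaling (adjusted p = 0.0394 and 0.0445) and with no filter (adjusted p = 0.0346 and 0.0485).

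Between siBoth and siMYBL2 effects, no member differed past the test, where 0.304% of all genes did. The 2 effects came from separate experiments with controls of their own, in which BMF stood at 6.61 CPM (siControl_Both) and 2.61 CPM (siControl). A difference between these effects, or from the sum of single effects below, cannot be told apart from a difference between the experiments. BAK1 came closest, at −0.73 (SE 0.167, 95% interval −1.07 to −0.38, adjusted p = 0.0623), and with the replicate block it passed (−0.73, adjusted p = 0.00142), as did BID (0.30, adjusted p = 0.0273). The differences for BMF (−0.46, 95% interval −1.33 to 0.41) and MCL1 (−0.09, −0.32 to 0.14) bound the MCL1 effects to a narrow range and the BMF effects to a wide one. A test added after these values were seen set the siBoth effect against the sum of the single effects. No gene of 17752 passed (0%), with 608 at an unadjusted p under 0.05 and 77 past the adjusted p with the replicate block (0.434%, none of them a member). For BAK1 the siBoth effect minus that sum was 0.15 (95% interval −0.32 to 0.63), and for BID, the only member whose unadjusted edgeR p was under 0.05, it was 0.37 (0.02 to 0.72). The intervals of BMF (−1.54 to 0.93) and BIK (−1.03 to 2.07) were too wide to bound a departure from the sum. FOXM1 itself fell in siMYBL2 (log2 fold change −0.73), so the single knockdowns shared a lowering of FOXM1.

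The FDI6 effect on MCL1 and PMAIP1 differed from those of siBoth and siFOXM1. These effects came from separate experiments, and a difference between them cannot be told apart from a difference between the experiments. Control levels of MCL1 were 200 CPM in control_FDI6, 421 in siControl and 682 in siControl_Both, and the mean with FDI6 was 447. The FDI6 effect minus the siBoth effect was 1.61 for MCL1 (SE 0.121, 95% interval 1.36 to 1.86, adjusted p = 8.62e-09), and 1.14 for PMAIP1 (SE 0.201, 0.72 to 1.56, adjusted p = 0.000208). These were the 2 members past the test, against 29.5% of all genes. Minus the siFOXM1 effect it was 1.16 for MCL1 (SE 0.113, adjusted p = 4.77e-07) and 1.19 for PMAIP1 (SE 0.187, adjusted p = 0.000128), against 20% of all genes. BAK1 fell in both FDI6 and siFOXM1, and the difference of 0.47 (95% interval 0.11 to 0.82, adjusted p = 0.0579) did not pass. It passed with at least 10 counts in every library (adjusted p = 0.0484) and with the replicate block (0.46, adjusted p = 0.0127), although the numbers did not pair the FDI6 libraries. For BMF the FDI6 effect minus the siBoth effect was −0.997 (−2.12 to 0.13, adjusted p = 0.176), a wide interval at the low BMF level of the FDI6 experiment.

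**Figure D4:**
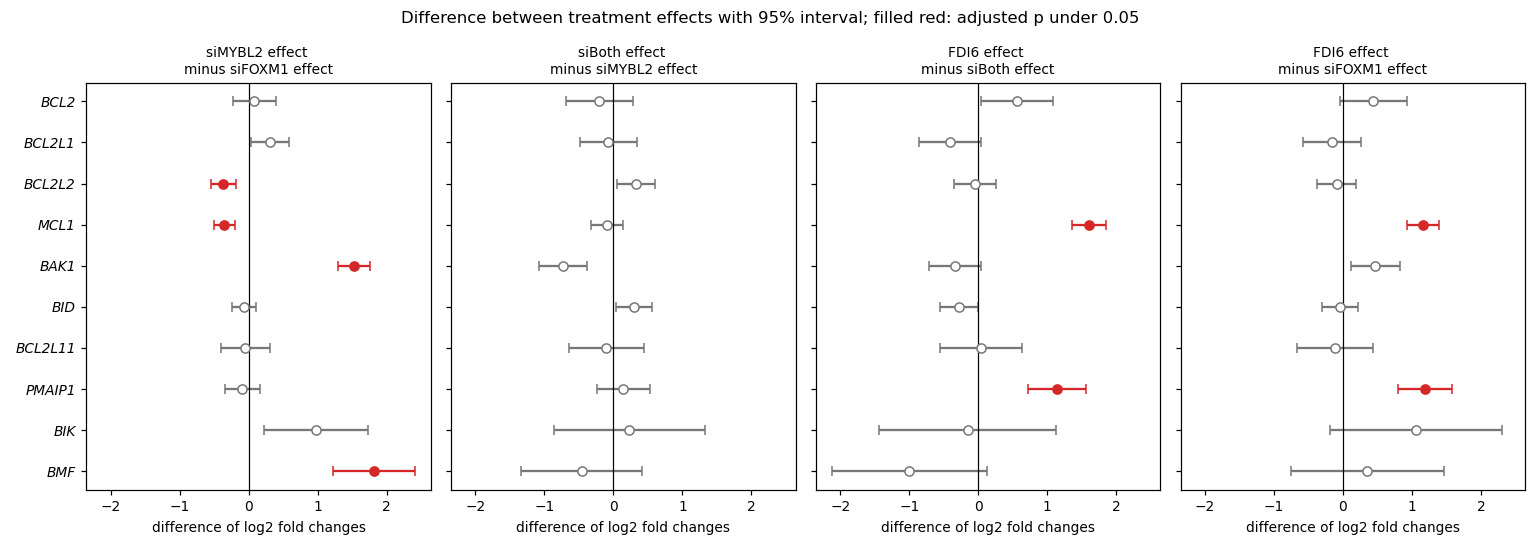
Difference between 2 treatment effects on the log2 scale for each member, with its 95% interval, from 1 edgeR fit of all 24 libraries, filled red where the adjusted p was under 0.05. BAK1 (1.53) and BMF (1.81) differed between siMYBL2 and siFOXM1, and MCL1 and PMAIP1 between FDI6 and both siBoth and siFOXM1, at 1.14 to 1.61.

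The median log2 fold change of the 10 was −0.07 in siMYBL2, −0.09 in siFOXM1, 0.01 in siBoth and 0.11 with FDI6, beside 0.01, 0.00, 0.02 and −0.01 over all genes tested. Their median absolute change was 0.29, 0.10, 0.21 and 0.19, beside 0.21, 0.12, 0.23 and 0.28 over all genes. Across the 4 comparisons BMF had the widest range of log2 fold changes (−0.16 to 1.66), followed by MCL1 (−0.42 to 1.18) and BAK1 (−0.88 to 0.65), and BCL2L11 had the narrowest (−0.10 to 0.05).

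Of 13 further BCL2 family genes, 11 were tested in each comparison. In siMYBL2, 1 rose and 1 fell, BCL2L12 at −0.72 (edgeR adjusted p = 0.00220), with 25.9% of its exon bases opposite IRF3. In siFOXM1 none passed, and in siBoth 1 rose, BBC3, which encodes the p53-responsive BH3-only protein PUMA, from 26.3 ± 5.63 to 46.5 ± 11.9 CPM (log2 fold change 0.85, adjusted p = 0.0343). With FDI6, 3 rose and 3 fell of 11, where 21% of all genes rose and 17.9% fell, and the median log2 fold change of the 11 was −0.03 beside −0.01 over all genes. The antiapoptotic BCL2A1 rose from 2.24 ± 0.887 to 7.19 ± 0.263 CPM (1.72, adjusted p = 0.000236) and the BH3-only HRK from 0.901 ± 0.279 to 2.40 ± 0.283 (1.43, adjusted p = 0.00309), while BCL2L12 fell (−0.60, adjusted p = 0.00654). BAX, the effector partner of BAK1, fell with FDI6 (−0.38, adjusted p = 0.00910) and did not pass in the knockdowns.

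All 18 genes of the apoptosome, the caspases and their inhibitors were tested. In siMYBL2, 2 rose and 1 fell, in siFOXM1 none passed, and in siBoth 1 rose and 1 fell, none of them called. With FDI6, 7 rose and 3 fell of 18, and the 5 called were all higher, where 21% of all genes rose, 17.9% fell, 8% were called higher and 5.77% called lower. The median log2 fold change of the 18 was 0.11, beside −0.01 over all genes. The 4 with the largest changes were BIRC3, from 27.6 ± 1.88 to 124 ± 17.4 CPM (2.19, adjusted p = 9.06e-08), XIAP (0.69, adjusted p = 4.97e-05), BIRC2 (0.67, adjusted p = 7.79e-05) and BIRC6 (0.67, adjusted p = 1.83e-05). All 4 encode inhibitor of apoptosis proteins, which restrain caspases or the signalling that leads to them.

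Of the 7 death receptor genes, 2 fell in siMYBL2, none passed in siFOXM1 and 1 fell in siBoth. TNFRSF10B, which encodes the TRAIL receptor DR5, fell from 291 ± 46.9 to 115 ± 19.7 CPM in siMYBL2 (−1.32, adjusted p = 0.000635) and from 565 ± 55.7 to 270 ± 39.2 in siBoth (−1.04, adjusted p = 0.00253), and TRADD, an adaptor of the TNF receptor, fell in siMYBL2 (−0.64, adjusted p = 0.00304). With FDI6, 6 were tested, 3 rose and 2 fell, beside the same 21% and 17.9% of all genes, and their median log2 fold change was 0.25. In the knockdowns the medians of the 3 lists lay between −0.14 and 0.04, beside 0.00 to 0.02 over all genes, of which 8.53% rose and 9.53% fell in siMYBL2, 0.277% and 1.09% in siFOXM1, and 4.55% and 7.77% in siBoth. TNFRSF10B rose with FDI6 (0.76, adjusted p = 8.79e-06), as did the other TRAIL receptor TNFRSF10A (0.87, adjusted p = 5.14e-05), and TRADD fell with FDI6 (−0.64, adjusted p = 0.00169).

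**Figure D5:**
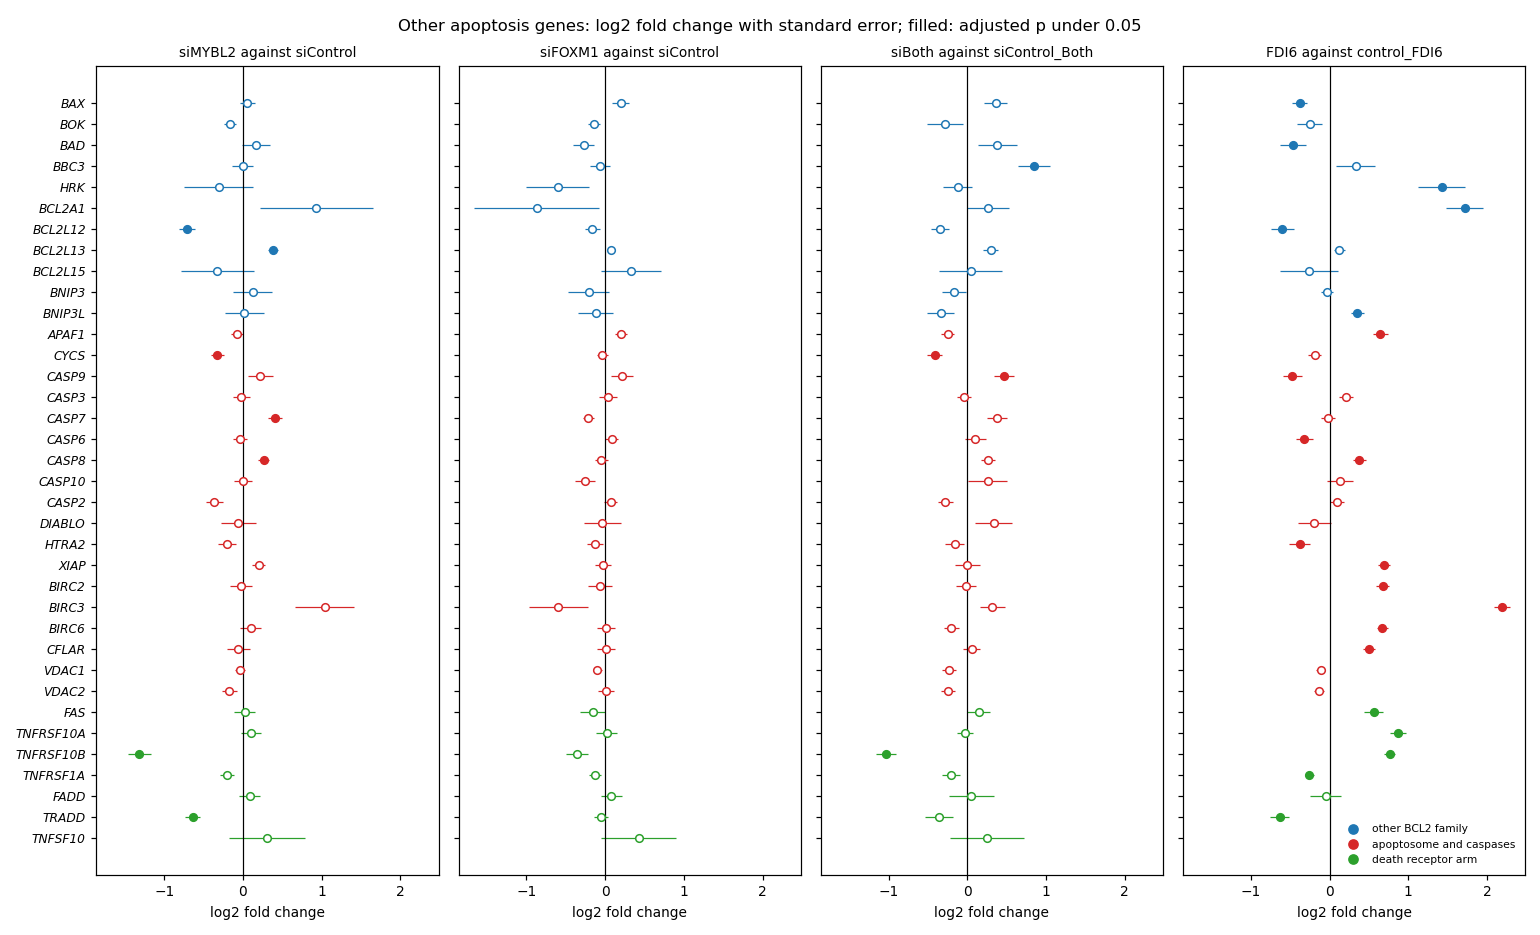
Log2 fold change of the other apoptosis genes in the 4 comparisons with the standard error as bars (edgeR), filled where the adjusted p was under 0.05. Filled points were few in the knockdowns and none in siFOXM1, and with FDI6 BIRC3 (2.19) lay farthest to the right.

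To compare patterns, the log2 CPM in each library was expressed as its distance from the average of the matching controls. These distances were correlated over the 24 libraries, among 11355 genes averaging 100 counts or more. Most alike to BMF were MAP6 (Pearson r = 0.894), MICAL1 (0.888) and SIRT2 (0.879). For MCL1 they were KLF6 (0.965), KDSR (0.963) and HIPK2 (0.961), and for BAK1 PAIP2 (0.890), DUSP14 (0.880) and CIRBP (0.873). The 24 points share experiments, treatments and controls, so these values describe a pattern over the libraries.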

How the data were processed

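Poly(A) RNA of A549 cells was sequenced as 150 bp pairs on a NovaSeq instrument. The authors trimmed the reads with TrimGalore, used STAR for alignment to hg38 and HTSeq for counting on the gene models of GENCODE V29, in versions not given in the sources used here. The authors deposited, for each of the 24 libraries, raw counts of pairs assigned to each gene, and pairs fitting several genes or places were left out, which lowers genes with overlapping exons. The labels and the paper name different RNA isolation kits. Identifiers were matched to GENCODE V44 (58207 matched, 514 did not).

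The members and gene lists were chosen with earlier results of these data known. Named were the 10 members, MYBL2 and FOXM1, and in each of 3 further lists the genes called in a comparison, the 4 largest by absolute change if more, and the 3 genes most alike to each of the 3 members of widest range. BAX and the cell type markers are named in addition. Groups and replicate numbers came from the sample labels. Counts were tested with edgeR 4.0.16 in R 4.3.3 (filterByExpr, TMM, quasi-likelihood test, two-sided, Benjamini-Hochberg over all genes tested), each treatment against its own controls, and differences between effects in 1 fit of all libraries. CPM were scaled by TMM over all 24 libraries. The SE is the log2 fold change over the square root of F. The procedure was tested on simulated counts. The 4 comparisons with controls were also computed with DESeq2 1.42.0, with upper-quartile or RLE scaling, without the filter, with a minimum of 10 counts in each library, with the replicate block, in 1 fit of all libraries, without each library in turn and, added after seeing the data, with a correction for GC content and length. The differences between effects were recomputed with the scalings, the filters, the block and without each library, and the sum of single effects with the block.

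Replicate numbers from the labels paired the libraries in the 3 knockdowns, where libraries of the same number deviated together from the means of their groups (Pearson r of 0.537 or more over genes), and not with FDI6 (−0.286 to 0.159). No pair of libraries agreed within sampling noise (chi-square per gene 3.85 to 72.2 over 30 pairs). The paper describes its RNA-seq replicates as biological, at least 3 for each experiment. Nothing in the labels says whether libraries came from separate cultures, and where they did not, p-values measure technical spread.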

Additional observations from a re-analysis of the deposited data

Results flagged for a closer look

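Libraries apart from the rest of their group were found in 3 of 30 sets of 4 libraries checked, where chance gives about 1 in 20. BAK1 in siFOXM1 had replicate 2 at 11.7 CPM against 8.84 to 9.17 in the other libraries (gap over range 0.882). BIK in siMYBL2 had replicate 4 at 0.629 CPM (0.840), and BIK in siFOXM1 had replicate 4 at 0.332 CPM (0.931). BIK in siControl was also lowest in replicate 4, at 0.381 CPM.

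Effects differed between treatments for 4 members between siMYBL2 and siFOXM1, which shared their controls (log2 difference −0.37 for BCL2L2, −0.35 for MCL1, 1.53 for BAK1 and 1.81 for BMF), and for MCL1 and PMAIP1 between FDI6 and siBoth (1.61 and 1.14) and between FDI6 and siFOXM1 (1.16 and 1.19), by edgeR's test of the difference with adjustment over all genes.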

How the results depend on the processing

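Depth limited BIK, at 9 to 87 counts per library, and BMF, at 11 to 483. Over 17 member results past the threshold, counting differences between effects, 375 of 375 alternatives kept the sign and 362 stayed past it. Of 1419 alternatives of the results not past it, 47 passed, 23 of them with the replicate block and 13 on leaving out a library. The cause of these changes was not tested.

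With the replicate block, genes called went from 1269 to 1991 in siMYBL2, from 106 to 401 in siFOXM1 and from 1019 to 1849 in siBoth, and members past the adjusted p from 3 to 8 in siMYBL2 and from 2 to 4 in siBoth, where members called went from 1 to 2. The numbers did not pair the FDI6 libraries, and there the block changed no member's call. For differences between effects, the block moved the genes past the test from 4492 to 7459 (siMYBL2 and siFOXM1), 54 to 1168 (siBoth and siMYBL2, with 2 members in place of 0), 5237 to 8118 (FDI6 and siBoth, 5 members in place of 2, BCL2, BCL2L1 and BID in addition) and 3542 to 6698 (FDI6 and siFOXM1, 4 in place of 2, with BAK1 at an adjusted p of 0.0127 and BIK at 0.0313 in addition). It changed no other call than those given here and in the report. The GC and length correction together with the block gave 1989 genes and 7 members past the adjusted p in siMYBL2, 390 genes in siFOXM1, 1591 genes, 5 members and 2 called in siBoth, and 1238 genes with FDI6. BAK1 was among the 5 in siBoth, where it was lower (−0.23, adjusted p = 0.0395). Without the block the correction left 1324 genes with FDI6 in place of 2098 and 1 member past the adjusted p in siBoth, and BIK with FDI6 passed (1.06, adjusted p = 0.0404). DESeq2 called 162 genes in siFOXM1 and, as did the fit with no filter (1545 genes in all), 2 members in siBoth, BIK being the second (adjusted p = 0.0409 and 0.0194). Upper-quartile scaling left 1 member past the adjusted p in siBoth and moved the share of calls that were higher there from 43.5% to 59.4% (610 higher and 417 lower). At least 10 counts in every library brought 1 member, BAK1, past the test between siBoth and siMYBL2 effects (adjusted p = 0.0492), and BAK1 between FDI6 and siFOXM1 effects (0.0484). Upper-quartile scaling also brought BID past the test between FDI6 and siBoth effects (0.0250). In 1 fit of all 24 libraries BCL2L2 passed in siMYBL2 (0.0402).

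Leaving out 1 library gave 935 to 1456 genes called in siMYBL2 (members past the adjusted p 2 to 3, called 1 to 2), 56 to 115 in siFOXM1 (members 0 to 1 for both), 587 to 1097 in siBoth (1 to 2, called 1) and 1705 to 2406 with FDI6 (2 to 3, called 2). The counts that moved by over 1.5 times were those without siFOXM1 replicate 1 (56) or 3 (69) or siControl replicate 1 (66) or 2 (68) in siFOXM1, and without siBoth replicate 2 (587) or siControl_Both replicate 2 (589) or 3 (643) in siBoth. Genes past the test of differences ranged over 3667 to 4718 (siMYBL2 and siFOXM1, 4 to 5 members), 26 to 84 (siBoth and siMYBL2, 0 to 1), 4255 to 5455 (FDI6 and siBoth, 2 to 3) and 2516 to 3714 (FDI6 and siFOXM1, 2 to 3). BAK1 passed between siBoth and siMYBL2 effects without siMYBL2 replicate 2 (adjusted p = 0.0404) or siFOXM1 replicate 2 (0.0447), and between FDI6 and siFOXM1 effects without siFOXM1 replicate 2, siControl replicate 4, siBoth replicate 2 or 3 or FDI6 replicate 1 (adjusted p from 0.0183 to 0.0495). BIK passed between siMYBL2 and siFOXM1 effects without siMYBL2 replicate 4, siControl replicate 4 or siControl_Both replicate 3 (adjusted p from 0.0104 to 0.0491), BCL2L1 without FDI6 replicate 1 (0.0483), and between FDI6 and siBoth effects BID passed without siControl_Both replicate 2 (0.0361) and BCL2 without FDI6 replicate 2 (0.0488).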
